A study of Mus musculus with 12 samples.

Results

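Large ribosomal subunit assembly factors are the proteins that build the 60S subunit of the ribosome from its rRNAs and ribosomal proteins and then leave it. A list of 47 mouse genes for such factors was taken from what is known of the pathway, out of 56941 genes in the deposited table. The list was chosen with earlier results of these data known. Every one of the 47 had a row and enough counts to be tested. They were ordered by role into 9 groups: early nucleolar RNA-binding and scaffold factors, the Brix family with loaders of the 5S particle, the PeBoW complex, DEAD-box helicases, rRNA methyltransferases with Nip7, nucleolar GTPases with Nsa2, the rixosome with ITS2 processing enzymes, AAA ATPases with Nle1, and export and late cytoplasmic factors. Nop16, the gene targeted in the study, encodes a factor of the same pathway in yeast and is not one of the 47.

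Assembly of the large subunit starts in the nucleolus, where early factors bind and fold the precursor rRNA while it is being transcribed. Helicases, methyltransferases and GTPases then remodel the particle, the internal transcribed spacer ITS2 is cut out, and large AAA ATPases strip factors off before export. The last factors are released in the cytoplasm, where the subunit becomes able to join the small subunit. Growing lymphocytes make many ribosomes, and the transcription factor MYC is known to drive many genes of this pathway through E-box sequences.

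The cells were CH12F3-2A, a B lymphoma line of the mouse whose IgM can switch to IgA in culture, and their RNA was sequenced. All cells received the plasmid pX459, which carries Cas9, a guide and puromycin resistance, by Neon transfection and were selected for 72 h with puromycin. The guide was a non-targeting control (sgCtr) or directed at Nop16 (sgNop16), and cells were then harvested without stimulation or after 24 h in CIT, which holds anti-CD40L at 1 μg/ml, mouse IL-4 at 20 ng/ml and human TGF-β at 1 ng/ml. The groups were thus sgCtr without CIT, sgCtr with CIT, sgNop16 without CIT and sgNop16 with CIT, each with 3 libraries that the series calls biological replicates. The series describes the sgNop16 cells as a knockdown and asks what NOP16 does in switching to IgA. The labels name 1 cell line and no further guide against Nop16, and neither clonal isolation nor the position of the guide is stated in the sources used here. A difference between the guides can therefore not be told apart from other effects of that guide. The sample titles do not say whether unstimulated cells were kept for the same 24 h. If they were not, a difference with CIT cannot be told apart from a further day in culture.

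Total estimated counts per library were between 38866418 and 48615177, and each of the 47 genes had at least 1044 counts in each library. Low values of the table were in excess at 4. If 1 fragment is worth 4 counts, which the sources used here do not state, the 1044 counts stand for 261 fragments and the totals for 9716604 to 12153794. Levels are given in CPM, counts scaled to a common library size, and differences as log2 with the standard error of edgeR's model. CPM are shares of a library and not amounts per cell. A gene is called where its adjusted p in edgeR's quasi-likelihood test was under 0.05, adjusted over all 16794 tested genes. Nop16 mRNA stood at 104, 108 and 107 CPM in the sgCtr libraries and 85.9, 82.4 and 88.6 CPM in the sgNop16 libraries without CIT, and at 78.8, 73.1 and 79.3 CPM in sgCtr and 64.7, 66.3 and 66.2 CPM in sgNop16 libraries with CIT. Its level fell under the Nop16 guide both before and after stimulation, by log2 differences of -0.31 ± 0.04 (SE, edgeR adjusted p = 0.000563) and -0.23 ± 0.04 (adjusted p = 0.00455). Edited alleles can still yield mRNA. All 8 B cell markers were above 1 CPM, from Ebf1 at 106 to Cd74 at 3648 CPM on average. T cell markers summed to at most 2.60 CPM in a library and fibroblast markers to at most 0.919, with Col1a2, Pdgfra and Dcn at 0. Macrophage markers summed to between 7.88 and 18.2 CPM, mainly Cd68 and Csf1r, with Lyz2 at 0. In bulk RNA, fewer cells that make a transcript and less of it per cell cannot be told apart.

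Nearly the whole set of assembly factors was lower after 24 h of CIT than without it. In sgCtr cells 44 of the 47 genes fell and 0 rose, where 20.9% of all tested genes were called lower, 20.4% higher and 41.4% in either direction. The median log2 difference of the 47 was -0.37, a fold of 0.774, and that of all tested genes was 0.02. All 47 values were negative, from -0.73 for Nop2 to -0.03 for Nsa2, and in 44 of the 47 every stimulated library lay below every unstimulated one (25% of all tested genes did so). The 3 genes not called were Ddx55, Nsa2 and Nvl. Summed over the 47, the level was 7537 ± 66.3 CPM (SD, n = 3) without and 5815 ± 48.5 CPM with CIT.

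**Figure D1:**
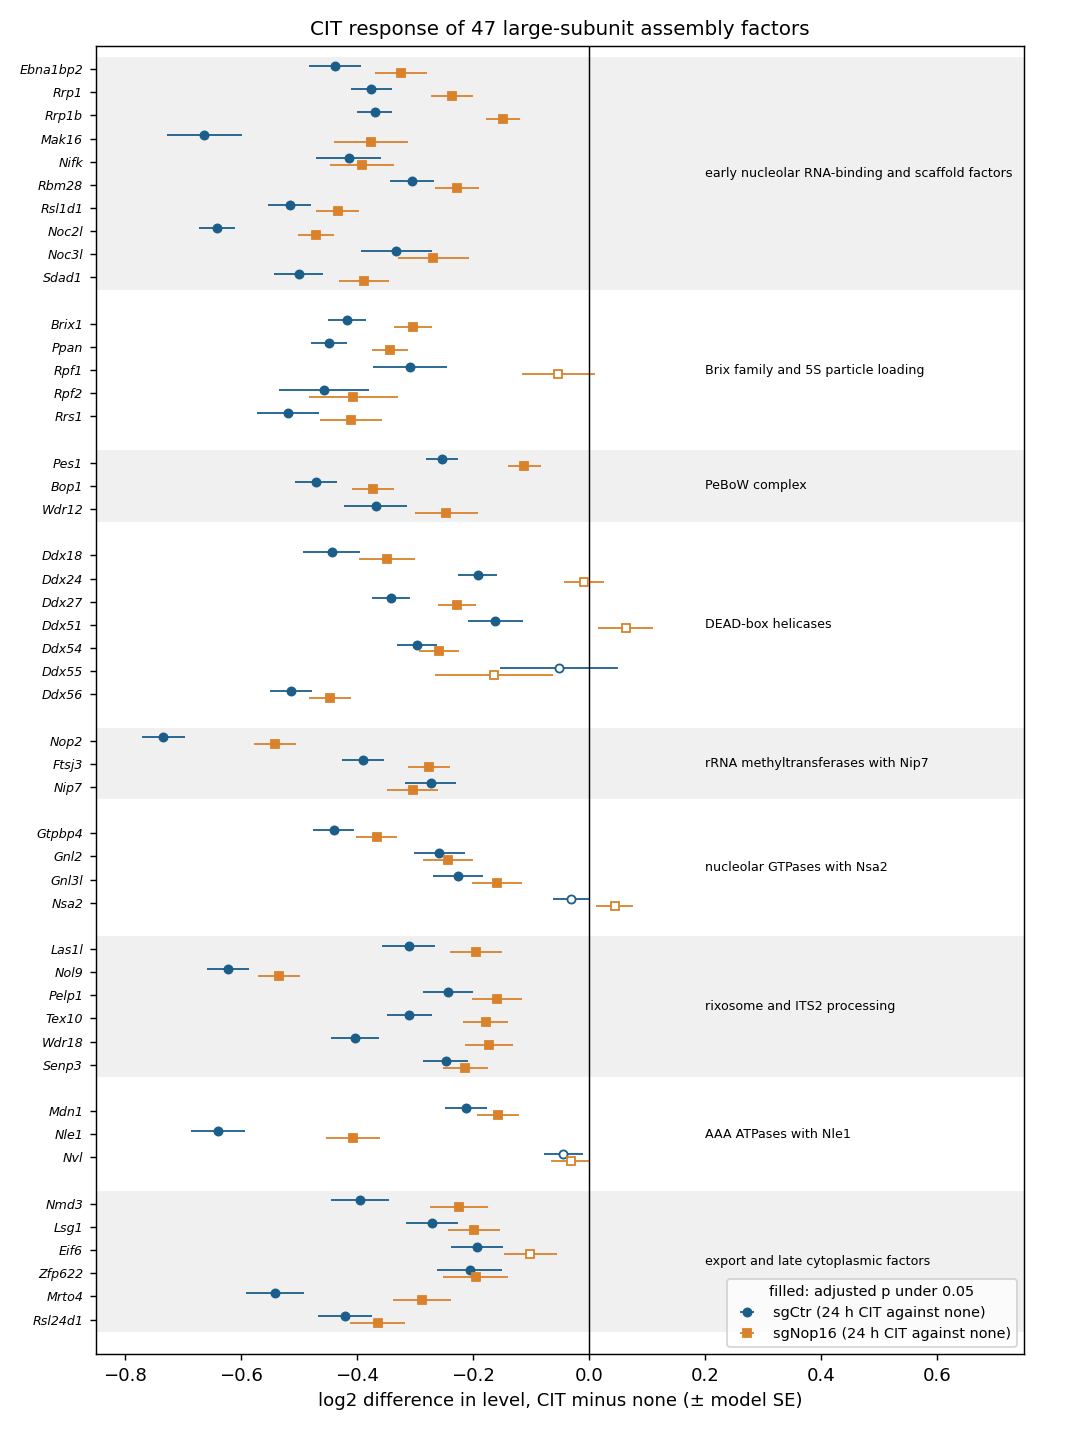
Log2 difference between 24 h of CIT and no CIT for each of the 47 assembly factors (points, with model SE as bars) in sgCtr cells (circles) and sgNop16 cells (squares), ordered by role; filled symbols have an edgeR adjusted p under 0.05. All sgCtr points lie below 0, from -0.73 for Nop2 to -0.03 for Nsa2.

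Among the early nucleolar factors all 10 fell, with a median log2 difference of -0.43. Noc2l, a partner of the early NOC complexes, was at 356, 369 and 360.5 CPM in the unstimulated sgCtr libraries and 231, 231 and 234 CPM in the stimulated ones. The groups were far apart and the stimulated libraries nearly equal, and the difference was -0.64 ± 0.03 (edgeR adjusted p = 6.00e-11). Mak16, which in yeast binds the precursor rRNA in the earliest particle, had a log2 difference of -0.66 ± 0.06, the largest of these 10. Rsl1d1, a nucleolar protein with an L1 domain, fell by 0.52 ± 0.04 on the log2 scale, and Sdad1 by 0.50 ± 0.04. The smallest of the 10 log2 differences was -0.30 ± 0.04, for the RNA-binding protein Rbm28 (Nop4 in yeast). Rrp1 and its paralogue Rrp1b had log2 differences of -0.37 ± 0.04 and -0.37 ± 0.03. Ebna1bp2, Nifk (which binds Ki-67) and Noc3l fell as well, by 0.33 to 0.44.

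All 5 of the Brix family and 5S group fell. Ppan was at 268, 263 and 259.8 CPM without and 189, 193 and 198 CPM with CIT, a log2 difference of -0.45 ± 0.03 (edgeR adjusted p = 4.34e-09). No stimulated library came near an unstimulated one. Annotated Ppan exons overlap small nucleolar RNA genes on the same strand, so its counts may hold reads of these. Rrs1 and Rpf2, which bring the 5S rRNA with its proteins into the particle, had log2 differences of -0.52 ± 0.05 and -0.46 ± 0.08. Brix1 was at -0.42 ± 0.03 and Rpf1 at -0.31 ± 0.06 on the same scale.

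The PeBoW complex, made of Pes1, Bop1 and Wdr12 and needed to process the precursor of the large subunit rRNAs, fell in all 3 of its members. Bop1 was at 186, 189 and 200.4 CPM without and 139.9, 138 and 137 CPM with CIT, with no overlap, and had the largest log2 difference of the 3 at -0.47 ± 0.04 (edgeR adjusted p = 2.25e-08). Wdr12 had a log2 difference of -0.37 ± 0.05 and Pes1 of -0.25 ± 0.03.

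Of the 7 DEAD-box helicases, which unwind rRNA, 6 fell. Ddx56 was at 177, 181 and 185 CPM without and 131, 127 and 122 CPM with CIT. Its groups did not overlap, and its log2 difference of -0.51 ± 0.04 (edgeR adjusted p = 6.78e-09) was the largest among the helicases. Ddx18, Ddx27 and Ddx54 had log2 differences of -0.44, -0.34 and -0.30. Ddx24 and Ddx51 stood at -0.19 ± 0.03 and -0.16 ± 0.05. The call of Ddx51 ended without sgCtr library 3 of the unstimulated cells (adjusted p = 0.066). Ddx55 was at 33.8, 32.4 and 33.8 CPM without and 27.9, 32.3 and 36.2 CPM with CIT. The stimulated libraries of Ddx55 spread on both sides of the unstimulated ones, and its log2 difference of -0.05 ± 0.10 was not called (edgeR adjusted p = 0.742).

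Nop2, a cytosine methyltransferase of the large subunit rRNA, had the largest log2 difference of the 47. Its levels were 225, 228 and 235 CPM without and 131, 145 and 137 CPM with CIT. The highest stimulated library was far below the lowest unstimulated one, and the log2 difference was -0.73 ± 0.04 (edgeR adjusted p = 9.98e-11). Ftsj3, a ribose methyltransferase (Spb1 in yeast), and Nip7, a small RNA-binding factor, had log2 differences of -0.39 ± 0.04 and -0.27 ± 0.04.

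The 3 nucleolar GTPases fell, while Nsa2, grouped with them, was not called. Gtpbp4 (Nog1 in yeast) was at 166, 162 and 167 CPM without and 127, 121 and 117 CPM with CIT, again without overlap, a log2 difference of -0.44 ± 0.04 (edgeR adjusted p = 3.43e-08). Gnl2 and Gnl3l had log2 differences of -0.26 ± 0.04 and -0.23 ± 0.04. Nsa2 was at 194, 188 and 189 CPM without and 182, 185 and 191 CPM with CIT. Its groups overlapped and the log2 difference was -0.03 ± 0.03 (adjusted p = 0.491).

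All 6 genes of the rixosome and ITS2 processing group fell. Nol9, the polynucleotide kinase that works with the endonuclease Las1l in ITS2 removal, was at 152, 160.3 and 158 CPM without and 104, 97.1 and 105 CPM with CIT. The states were widely separated, with a log2 difference of -0.62 ± 0.04 (edgeR adjusted p = 6.48e-10). Las1l itself had a log2 difference of -0.31 ± 0.05. Wdr18, Tex10 and Pelp1, which form the scaffold of the rixosome, were at -0.40, -0.31 and -0.24, and the SUMO protease Senp3 was at -0.25 on the same log2 scale.

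Of the AAA ATPases and Nle1, 2 of 3 genes fell. Nle1, the adaptor through which the giant ATPase Mdn1 acts on the particle, was at 63.8, 62.6 and 64.5 CPM without and 39.4, 40.9 and 42.3 CPM with CIT, a log2 difference of -0.64 ± 0.05 (edgeR adjusted p = 9.37e-09). Mdn1 fell by 0.21 ± 0.04 on the log2 scale. Nvl (Rix7 in yeast) was at 117, 120.3 and 115 CPM without and 116, 114 and 113 CPM with CIT. One stimulated library of Nvl lay within the unstimulated range, and its log2 difference of -0.04 ± 0.03 was not called (adjusted p = 0.33).

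All 6 export and late cytoplasmic factors fell. Mrto4, a placeholder for the stalk protein P0, was at 109, 107 and 118 CPM without and 81.0, 76.5 and 71.8 CPM with CIT. The stimulated libraries were all lower, by a log2 difference of -0.54 ± 0.05 (edgeR adjusted p = 2.14e-07). Rsl24d1, which in yeast holds the place of a ribosomal protein, had -0.42 ± 0.05, though its exons overlap another annotated gene on the same strand. The export adaptor Nmd3 and the GTPase Lsg1, which releases it in the cytoplasm, had log2 differences of -0.39 ± 0.05 and -0.27 ± 0.04. Eif6, which keeps the subunits from joining too early, and Zfp622 (Rei1 in yeast) were at -0.19 ± 0.04 and -0.21 ± 0.06.

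**Figure D2:**
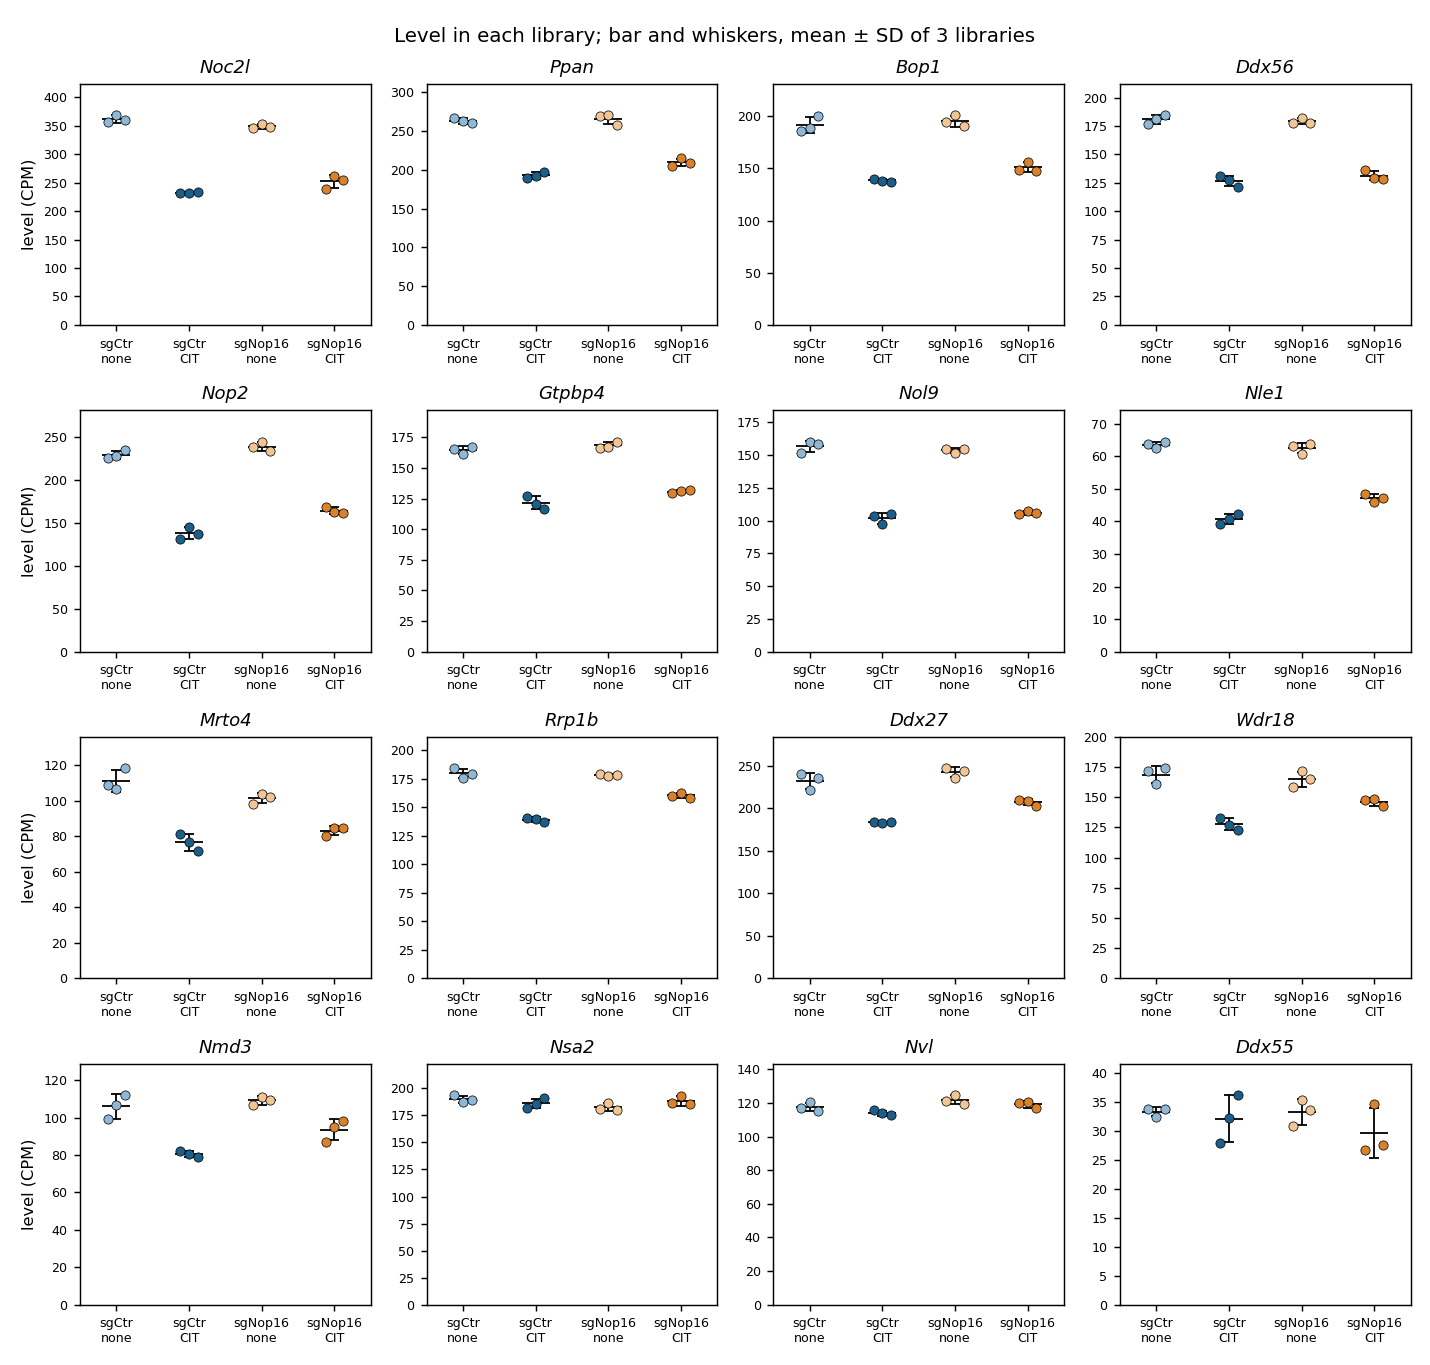
Level in CPM (vertical axes, from 0) of 16 assembly factors in each library of the 4 groups (points), with mean and SD of 3 libraries as bars. Nop2 falls from 225 to 235 CPM without CIT to 131 to 145 CPM with CIT in sgCtr cells, while Nsa2, Nvl and Ddx55 overlap between the states.

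Promoter windows were read for the genes that moved together, because CACGTG, the E-box bound by MYC, is a known element of this pathway. RefSeq (GRCm38.p6) windows of 300 bases, from 250 before to 50 after the gene start, matched 40 of the 47 genes by symbol. The 7 without a match were Mak16, Rpf1, Rrs1, Bop1, Gnl2, Gnl3l and Eif6. CACGTG, which reads the same on both strands, was in a window of 9 of the 40 genes (22.5%), against 11.4% of 10307 tested genes and 8.09% of all 27025 genes in the promoter table. The 9 were Sdad1, Rpf2, Pes1, Nop2, Pelp1, Tex10, Mdn1, Nle1 and Nmd3. The related letters CACGCG, searched on both strands and unable to overlap CACGTG, were in 15 of the 40 (37.5%), against 19.2% of tested genes. Of 32 other genes for large subunit assembly, followed below, 25 matched a window. CACGTG was in 4 of these 25 (16%) and CACGCG in 5 (20%). A match says that these letters are in the window and no more. Printed below are 4 windows with CACGTG in capitals (Nop2 and Nle1, which were among the largest falls, and Pes1 and Nmd3, with the match near to and far from the start) and 2 without a match, for Nol9, also among the largest falls, and Nsa2, which was not called. The windows are Nop2 at chr6:125131633-125131932 (plus strand), Nle1 at chr11:82908346-82908645 (minus strand), Pes1 at chr11:3963725-3964024 (plus strand), Nmd3 at chr3:69721805-69722104 (plus strand), Nol9 at chr4:152039071-152039370 (plus strand) and Nsa2 at chr13:97137877-97138176 (minus strand), each written along the gene's own strand. Nol9 has 2 overlapping windows, of which the first is shown.
Nop2: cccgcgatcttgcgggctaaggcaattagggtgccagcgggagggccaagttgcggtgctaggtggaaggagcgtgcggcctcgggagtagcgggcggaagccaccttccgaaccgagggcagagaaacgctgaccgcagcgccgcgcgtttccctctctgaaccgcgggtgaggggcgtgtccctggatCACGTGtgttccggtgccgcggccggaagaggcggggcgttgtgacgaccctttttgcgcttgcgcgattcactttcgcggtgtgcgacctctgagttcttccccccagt
Nle1: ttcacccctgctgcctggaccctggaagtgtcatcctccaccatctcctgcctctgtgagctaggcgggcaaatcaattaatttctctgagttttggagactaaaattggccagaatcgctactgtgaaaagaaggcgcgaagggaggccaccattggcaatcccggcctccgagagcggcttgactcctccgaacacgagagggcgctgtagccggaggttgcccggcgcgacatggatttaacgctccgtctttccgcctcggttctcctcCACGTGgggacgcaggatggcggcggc
Pes1: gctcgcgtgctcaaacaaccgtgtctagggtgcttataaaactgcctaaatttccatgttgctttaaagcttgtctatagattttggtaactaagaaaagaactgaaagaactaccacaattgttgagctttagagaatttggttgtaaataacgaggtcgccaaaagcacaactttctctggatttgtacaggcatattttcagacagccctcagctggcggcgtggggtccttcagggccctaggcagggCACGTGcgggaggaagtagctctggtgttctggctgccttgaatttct
Nmd3: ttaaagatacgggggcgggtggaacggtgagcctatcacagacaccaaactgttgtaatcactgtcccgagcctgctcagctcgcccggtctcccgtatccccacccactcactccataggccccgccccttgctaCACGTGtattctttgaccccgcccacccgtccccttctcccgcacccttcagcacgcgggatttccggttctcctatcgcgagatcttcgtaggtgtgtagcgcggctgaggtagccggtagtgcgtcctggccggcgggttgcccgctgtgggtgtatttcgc
Nol9: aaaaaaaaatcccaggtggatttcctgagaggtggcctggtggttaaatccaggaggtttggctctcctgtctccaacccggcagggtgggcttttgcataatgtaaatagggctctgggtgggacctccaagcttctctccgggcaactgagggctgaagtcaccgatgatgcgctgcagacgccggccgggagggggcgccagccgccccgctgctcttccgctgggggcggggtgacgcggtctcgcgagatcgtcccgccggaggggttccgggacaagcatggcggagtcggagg
Nsa2: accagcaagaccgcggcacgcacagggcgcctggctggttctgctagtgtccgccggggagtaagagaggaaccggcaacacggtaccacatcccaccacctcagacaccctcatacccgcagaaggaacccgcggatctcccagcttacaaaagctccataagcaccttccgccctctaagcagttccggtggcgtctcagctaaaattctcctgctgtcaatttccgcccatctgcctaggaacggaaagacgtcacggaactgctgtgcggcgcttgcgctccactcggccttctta
The CACGTG began 60 bases before the gene start in Nop2 (position -60) and 114 before it in Nmd3 (position -114). It began at base 24 after the start in Nle1 and at base 3 in Pes1. Pes1 and Nmd3 also held CACGCG, on either strand, 1 time each. Nol9, with a log2 difference of -0.62, held neither CACGTG nor CACGCG, so genes with and without the letters were among the largest falls.

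Myc mRNA itself was at 454, 449.5 and 462 CPM in unstimulated and 204, 198 and 189.6 CPM in stimulated sgCtr libraries, a log2 difference of -1.21 ± 0.03 (edgeR adjusted p = 1.58e-14). Ubtf, a factor for rRNA gene transcription, moved the other way, with a log2 difference of 0.12 ± 0.03. Of the 8 B cell markers, 4 were higher and 2 lower after CIT in sgCtr cells, and 4 were higher and 3 lower in sgNop16 cells (edgeR). Their sum, carried by Cd74, was 6934 to 7238 CPM with and 3935 to 4045 CPM without CIT in sgCtr cells. Ms4a1 and Ebf1 went the other way, with log2 differences of -0.25 ± 0.03 and -0.16 ± 0.04. Macrophage markers summed to 7.88 to 8.90 CPM without and 11.9 to 15.1 CPM with CIT in sgCtr cells. In sgNop16 cells the sums were 9.44 to 10.9 and 15.7 to 18.2 CPM. In sgCtr cells 2 of the 4 tested macrophage markers were called higher and 1 lower, and in sgNop16 cells 1 higher and 0 lower. Itgam fell from a mean of 0.704 to 0 CPM in sgCtr cells and went from 0.126 to 0.0549 CPM in sgNop16 cells. Csf1r rose with CIT, from a mean of 0.811 to 4.54 CPM in sgCtr and from 1.46 to 7.75 CPM in sgNop16 cells. Epor, the erythropoietin receptor gene, rose too, from 0.787 to 2.18 CPM and from 0.827 to 3.52 CPM. The part of Myc or of the marker genes in the fall of the assembly factors was not tested.

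With the Nop16 guide, 40 of the 47 genes were called lower after CIT and 0 higher. Of all tested genes, 18.2% were called lower, 18.9% higher and 37% in either direction. The median log2 difference was -0.25, a fold of 0.843, against 0.01 for all tested genes. In 40 every stimulated library was below every unstimulated one (22.7% of all tested genes). The genes not called were Rpf1, Ddx24, Ddx51, Ddx55, Nsa2, Nvl and Eif6. Pelp1, called at -0.16 ± 0.04, was lost without stimulated sgNop16 library 2 (edgeR adjusted p = 0.0515).

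The largest falls in sgNop16 cells were in the methyltransferase Nop2 and the ITS2 kinase Nol9. Nop2 was at 238, 245 and 234 CPM without and 168, 163 and 161 CPM with CIT, a log2 difference of -0.54 ± 0.04 (edgeR adjusted p = 5.10e-09). Nol9 was at 155, 152 and 154 CPM without and 105, 108 and 106 CPM with CIT, a log2 difference of -0.53 ± 0.04. Neither gene's states overlapped. By role, all 10 early factors, all 3 PeBoW members, all 3 methyltransferase group members and all 6 rixosome genes fell, as did 4 of 5 in the Brix group, 4 of 7 helicases, 3 of 4 in the GTPase group, 2 of 3 in the ATPase group and 5 of 6 late factors. The log2 differences of Ddx51 and Nsa2 were positive at 0.06 ± 0.05 and 0.04 ± 0.03, and neither was called (adjusted p = 0.351 and 0.317). Myc was at 463, 467 and 458 CPM without and 239, 251 and 244 CPM with CIT in these cells, a log2 difference of -0.92 ± 0.03.

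Without stimulation the guide made no called difference in any of the 47 genes. The count was 0 of 47 by edgeR, where calls were made for 3.32% of all tested genes (1.79% upward, 1.53% downward). Of the 47, 6 had an unadjusted p under 0.05, as did 14.6% of all tested genes. DESeq2 called 2 of the 47, and 5.52% of all tested genes in either direction. The 2 were Rrp1, lower by a log2 difference of -0.11 (DESeq2 adjusted p = 0.0315), and Mdn1, higher by 0.10 (adjusted p = 0.0492). The median log2 difference of the 47 was -0.01 and the range was from -0.13 for Mrto4 to 0.10 for Mdn1. In 8 of the 47 all sgNop16 libraries were below all sgCtr libraries (9.4% of all tested genes did so), and in 0 above (9.44%). The 8 were Rrp1, Noc2l, Ddx24, Pes1, Nsa2, Tex10, Las1l and Mrto4. The summed level was 7537 ± 66.3 CPM in sgCtr and 7506 ± 37.8 CPM in sgNop16 cells.

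The smallest edgeR p of the 47 belonged to Rrp1, an early nucleolar scaffold factor. It was at 292, 290.0 and 293 CPM in sgCtr and 272, 273 and 263 CPM in sgNop16 libraries, a log2 difference of -0.11 ± 0.04 (edgeR adjusted p = 0.11). Every sgNop16 library was lower. Mrto4 stood at 109, 107 and 118 CPM in sgCtr and 98.2, 104 and 102 CPM in sgNop16 libraries, a log2 difference of -0.13 ± 0.05. The helicase Ddx24 was at 166, 159.5 and 156 CPM in sgCtr and 147, 149 and 155 CPM in sgNop16 libraries. The rixosome gene Tex10 was at 90.7, 96.0 and 93.6 CPM in sgCtr and 89.9, 85.2 and 87.4 CPM in sgNop16 libraries. These libraries were close without overlapping, and the adjusted p values were 0.197, 0.169 and 0.251 for Mrto4, Ddx24 and Tex10. Pes1 was at 238, 236 and 236 CPM in sgCtr and 231, 228 and 221 CPM in sgNop16 libraries, a log2 difference of -0.06. Nsa2 was at 194, 188 and 189 CPM in sgCtr and 181, 186 and 180.0 CPM in sgNop16 libraries, also a log2 difference of -0.06, and both genes were lower in every sgNop16 library. Mdn1 leaned the other way at 365, 376 and 344 CPM in sgCtr and 393, 395 and 374 CPM in sgNop16 libraries, with overlapping libraries and a log2 difference of 0.10 ± 0.04 (adjusted p = 0.19). The smallest p in the Brix group belonged to Rpf2, at 55.4, 50.9 and 55.5 CPM in sgCtr and 60.9, 52.5 and 57.4 CPM in sgNop16 libraries, and in the methyltransferase group to Nop2, at 0.06 ± 0.04 on the log2 scale. Neither gene separated the guides.

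After CIT, 12 of the 47 assembly factors were higher in sgNop16 than in sgCtr cells and 0 were lower. Of all tested genes, 3.39% were called higher, 2.77% lower and 6.16% in either direction. The 12 were Rrp1b, Noc2l and Rbm28 of the early factors, Ppan of the Brix group, the helicases Ddx27 and Ddx51, the methyltransferases Nop2 and Ftsj3, Wdr18 of the rixosome, Mdn1 with its adaptor Nle1, and the export adaptor Nmd3. The differences were small: from 0.12 for Ppan to 0.25 for Nop2 on the log2 scale, with a median of 0.09 over all 47 against 0.01 over all tested genes. The values of 45 of the 47 were positive (95.7%, against 51.8% of all tested genes). In 25 every sgNop16 library lay above every sgCtr library (13.2% of all tested genes did so), and in 0 below (10.9%). Summed levels were 6233 ± 77.4 CPM in sgNop16 and 5815 ± 48.5 CPM in sgCtr cells.

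**Figure D3:**
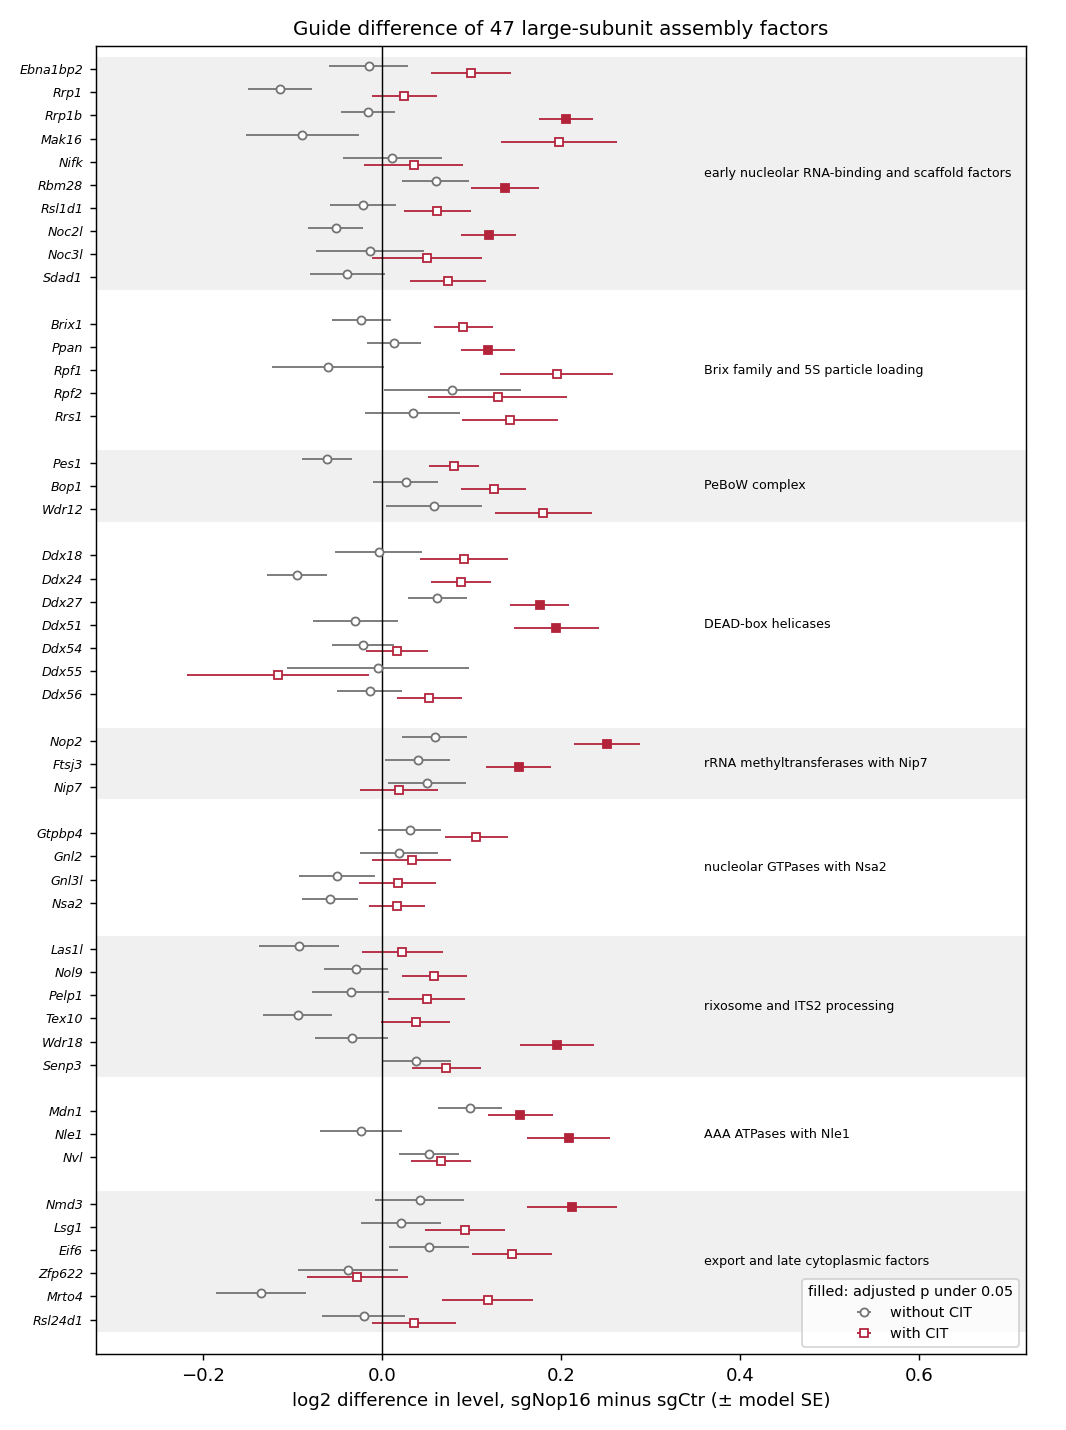
Log2 difference between sgNop16 and sgCtr cells for each of the 47 assembly factors (points, with model SE as bars), without CIT (circles) and with CIT (squares), ordered by role; filled symbols have an edgeR adjusted p under 0.05. The 12 filled squares lie to the right of 0, between 0.12 and 0.25, and no circle is filled.

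The methyltransferase Nop2 had the largest log2 difference of the 12. With CIT it was at 131, 145 and 137 CPM in sgCtr and 168, 163 and 161 CPM in sgNop16 libraries, a log2 difference of 0.25 ± 0.04 (edgeR adjusted p = 0.000647). The lowest sgNop16 library was above the highest sgCtr one, and all were below the unstimulated level. Rrp1b, the paralogue of Rrp1, was at 141, 139.6 and 137 CPM in sgCtr and 160.2, 163 and 158 CPM in sgNop16 libraries, a log2 difference of 0.21 ± 0.03 (adjusted p = 0.000584). Its libraries were tightly grouped on either side of a wide gap. Ddx27 (Drs1 in yeast) was at 183, 182 and 184 CPM in sgCtr and 209.5, 209 and 203 CPM in sgNop16 libraries, a log2 difference of 0.18 ± 0.03 (adjusted p = 0.0041). Nop2, Rrp1b and Ddx27 were called under every alternative that was run, DESeq2 and each omission of a library among them.

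Wdr18 was at 133, 127 and 123 CPM in sgCtr and 147, 149 and 142 CPM in sgNop16 libraries without overlap, a log2 difference of 0.20 ± 0.04 (edgeR adjusted p = 0.00994). Nle1 was at 39.4, 40.9 and 42.3 CPM in sgCtr and 48.5, 46.0 and 47.2 CPM in sgNop16 libraries, a log2 difference of 0.21 ± 0.05 (adjusted p = 0.0135). Its ATPase Mdn1 was at 326, 308 and 303 CPM in sgCtr and 339.8, 352 and 351 CPM in sgNop16 libraries, a log2 difference of 0.15 ± 0.04. For both genes of this pair the sgNop16 libraries were all higher. Nmd3 was at 82.4, 80.3 and 79.2 CPM in sgCtr and 87.2, 95.2 and 97.9 CPM in sgNop16 libraries, a log2 difference of 0.21 ± 0.05 (adjusted p = 0.0191). Ppan was at 189, 193 and 198 CPM in sgCtr and 205, 215 and 209 CPM in sgNop16 libraries, a log2 difference of 0.12 ± 0.03. These too were separated between the guides. Ddx51, Ftsj3, Rbm28 and Noc2l had log2 differences of 0.19 ± 0.05, 0.15 ± 0.04, 0.14 ± 0.04 and 0.12 ± 0.03.

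Among the genes not called by edgeR, Bop1 of the PeBoW complex was at 139.9, 138 and 137 CPM in sgCtr and 149, 156 and 148 CPM in sgNop16 libraries with CIT, a log2 difference of 0.12 ± 0.04 (edgeR adjusted p = 0.0574). Gtpbp4, with the smallest p in the GTPase group, was at 127, 121 and 117 CPM in sgCtr and 129, 131 and 132 CPM in sgNop16 libraries, a log2 difference of 0.11 ± 0.04 (adjusted p = 0.1). Both had separated libraries. By edgeR the GTPase and PeBoW groups had no called member. DESeq2 called all 3 PeBoW members higher, with adjusted p = 0.0124 for Bop1, 0.0126 for Wdr12 and 0.0425 for Pes1, and Gtpbp4 with 0.0442. It also called Mak16, Rpf1 and Eif6 higher, by log2 differences of 0.20, 0.20 and 0.15 (DESeq2 adjusted p = 0.0436, 0.0253 and 0.0173). In the GTPase group the other 3 values lay between 0.02 and 0.03. The negative values were those of Ddx55 at -0.12 ± 0.10 and Zfp622 at -0.03 ± 0.06, neither of them called by either tool.

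The count of 12 fell when single libraries were left out, which also leaves fewer libraries to the test. It was 6 without stimulated sgCtr library 2, 5 without stimulated sgCtr library 3, 5 without stimulated sgNop16 library 2 and 6 without stimulated sgNop16 library 3. DESeq2 called 19, all of them higher, where it called 5.32% of all tested genes higher and 9.24% in either direction. The call of Wdr18 ended without sgCtr library 3 (edgeR adjusted p = 0.0543), and those of Noc2l, Rbm28, Ppan, Ddx51, Ftsj3, Mdn1, Nle1 and Nmd3 each ended in at least 3 of 15 alternatives, with a highest adjusted p of 0.0713 for Nle1 and 0.186 for Rbm28. Myc was also higher with the Nop16 guide after CIT, at 239, 251 and 244 against 204, 198 and 189.6 CPM, a log2 difference of 0.31 ± 0.03 (adjusted p = 1.25e-05). Of the 8 B cell markers, 3 were lower with the guide after CIT and 0 higher: Ms4a1, from a mean of 278 to 192 CPM (log2 difference -0.54 ± 0.03), Cd79b, from 229 to 191 CPM, and Ebf1, from 104 to 88.7 CPM. Without CIT 2 were higher and 2 lower, where 3.32% of all tested genes were called in either direction (6.16% with CIT). Ms4a1 and Cd79b were lower on average with the guide without CIT as well, from 330 to 302 CPM and from 221 to 203 CPM. Ebf1 was at 117 and 116 CPM there. Csf1r and Epor were above the sgCtr libraries in every sgNop16 library with CIT, and neither was called (adjusted p = 0.0788 and 0.2). Epor was the 1 of 3 tested erythroid markers with a positive log2 difference here. It was negative in 2, and 0 of the 3 were called. Of the 4 tested macrophage markers, 0 were called between the guides with CIT and 1, higher with the Nop16 guide, without CIT. The part of Myc or of these markers in the difference of the assembly factors was not tested.

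**Figure D4:**
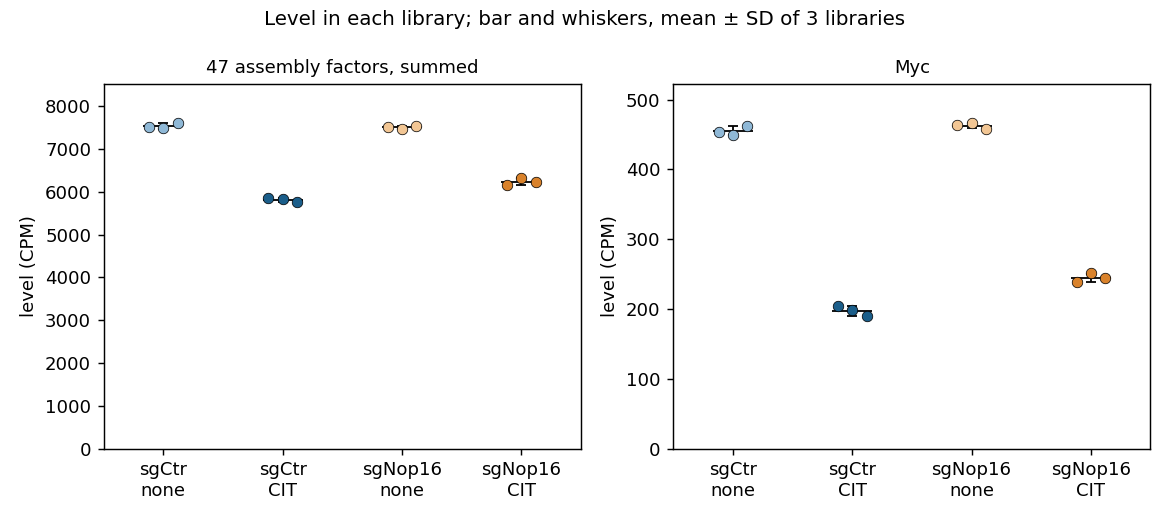
Summed level of the 47 assembly factors (left) and level of Myc (right) in CPM, from 0, in each library of the 4 groups (points), with mean and SD of 3 libraries as bars. Both were lower with CIT, and within the stimulated cells the sgNop16 libraries lay above the sgCtr libraries (6157 to 6312 against 5759 to 5845 CPM on the left).

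Whether the CIT response differed between the guides was tested as an interaction over all 12 libraries. For 1 of the 47 genes, Rrp1b, the fall was called smaller with the Nop16 guide, where 0.881% of all tested genes were called for a higher and 1.25% for a lower response, 2.13% in all. Rrp1b fell by a log2 difference of 0.37 ± 0.03 in sgCtr cells, from 184, 176 and 179.5 to 141, 139.6 and 137 CPM. In sgNop16 cells it fell by 0.15 ± 0.03, from 179, 177 and 178 to 160.2, 163 and 158 CPM. The libraries of the guides overlapped before stimulation and were apart after it, and the responses differed by 0.22 ± 0.04 (edgeR adjusted p = 0.0118). On the opposite strand, annotated exons of Rrp1b overlap those of Hsf2bp, and the sources used here do not say whether strand was used in counting.

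Over the 47 genes the median difference of responses was 0.10 on the log2 scale, against 0.01 over all tested genes. It was positive in 45, with Ddx55 and Nip7 as the exceptions (95.7%, against 51.3% of all tested genes), and 18 had an unadjusted p under 0.05, as did 13.3% of all tested genes. Next to Rrp1b in p were Wdr18 at 0.23 ± 0.06 and Noc2l at 0.17 ± 0.04 (adjusted p = 0.056 for both by edgeR), then Ddx24 at 0.18 ± 0.05 (adjusted p = 0.0601) and Nop2 at 0.19 ± 0.05 (adjusted p = 0.0714). DESeq2 called 9 genes, where it called 4.57% of all tested genes (2.18% for a higher response). The 9 were Rrp1b, Noc2l, Pes1, Ddx24, Ddx51, Nop2, Wdr18, Nle1 and Mrto4. The call of Rrp1b held under every alternative, and the number called by edgeR was 1 or 2 when single libraries were left out.

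**Figure D5:**
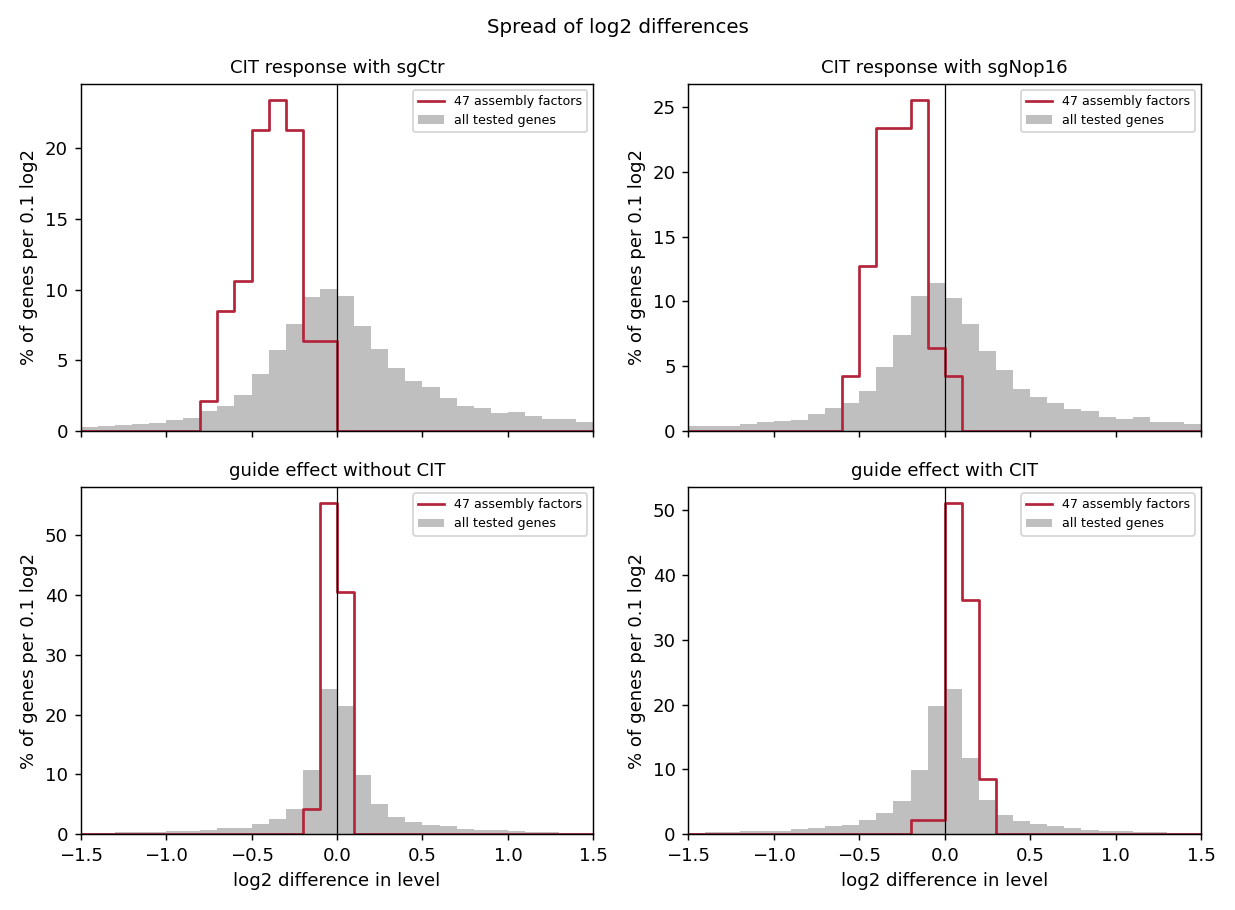
Percent of genes (vertical axes) per bin of 0.1 in log2 difference (horizontal axes) for all 16794 tested genes (grey) and the 47 assembly factors (line) in 4 comparisons. The line is shifted to the left for both CIT responses (medians -0.37 and -0.25), centred near 0 for the guide without CIT (-0.01) and slightly to the right for the guide with CIT (0.09).

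The rest of the pathway was followed through 32 other genes for large subunit assembly, also chosen with earlier results of these data known. With CIT 30 of the 32 fell in sgCtr cells and 0 rose, with a median log2 difference of -0.32, and 26 fell in sgNop16 cells with 0 higher. Over all tested genes 20.9% fell in sgCtr and 18.2% in sgNop16 cells, and the median of the former response was 0.02. Nsun5, which methylates the large subunit rRNA, was at 41.9, 35.2 and 43.2 CPM without and 25.6, 25.6 and 26.6 CPM with CIT in sgCtr cells. It had a log2 difference of -0.63 ± 0.08 (edgeR adjusted p = 4.52e-06), followed by Tma16 at -0.62 ± 0.07 and Pa2g4, the counterpart of yeast Arx1, at -0.60 ± 0.02. In sgNop16 cells the largest log2 differences were -0.49 ± 0.07 for Tma16, -0.47 ± 0.06 for Surf6 and -0.46 ± 0.07 for Rrp8. The guide made no called difference in the 32 without CIT (0 by edgeR, 0 by DESeq2, 6 at an unadjusted p under 0.05). Of all tested genes, edgeR called 3.32% there and DESeq2 5.52%, and 14.6% had an unadjusted p under 0.05. With CIT edgeR called 5 of the 32 higher in sgNop16 cells (3.39% of all tested genes were) and 0 lower (2.77%). DESeq2 called 8 higher (5.32% of all tested genes). The edgeR calls were led by Ccdc137 at 0.27 ± 0.07, with Pa2g4 and Mybbp1a at 0.16 each. Pa2g4 was at 499.6, 488 and 495 CPM in sgCtr and 535, 569 and 555 CPM in sgNop16 libraries, without overlap (adjusted p = 0.000552). Beside them Rrp15 and Gnl3 were called. The calls of Ccdc137, Rrp15 and Gnl3 ended without stimulated sgNop16 library 2, and their highest adjusted p over the edgeR alternatives was 0.131, 0.145 and 0.0632.

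Levels between genes are compared per kilobase of exon, where the length holds every annotated exon of a gene, whichever transcripts the cells make. In unstimulated sgCtr cells the 47 ran from 236 ± 10.4 CPM per kilobase for Rsl1d1 to 6.29 ± 0.152 for Ddx55. After Rsl1d1 came Noc2l at 126 ± 2.25, Rrp1 at 87.4 ± 0.442 and Nop2 at 82.8 ± 1.70 CPM per kilobase, none of which met its neighbour within 1 SD. At the lower end stood Nmd3 at 10.4 ± 0.647, Wdr12 at 10.3 ± 0.367 and Nvl at 8.71 ± 0.192 CPM per kilobase, and the first pair of these did not differ beyond its spread. Their annotated exons were long, at 10.15, 11.96 and 13.49 kilobases, and before division by length they were at 106, 124 and 118 CPM. Their place in the order thus depends on that length. In 29 of the 46 neighbouring pairs of this order the intervals of mean ± SD met. Factors high and low in this order fell with CIT, while Nvl and Ddx55, at the very bottom of the order, were not called and Nsa2 stood at 44.5 ± 0.770 CPM per kilobase. Replicates were close, with a median coefficient of variation of 2.3 to 3.64% per group, and the largest was 14.5%, for Ddx55 in stimulated sgNop16 cells.

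The 47 genes lie on 17 chromosomes, with 7 on chromosome 4, 6 on chromosome 11 and 5 on chromosome 1. Annotated exons overlap another gene on the same strand in 2 of them, Ppan and Rsl24d1, and on the opposite strand in 15. These 15 were Rrp1b, Mak16, Noc2l, Sdad1, Pes1, Bop1, Wdr12, Ddx54, Gtpbp4, Gnl2, Nsa2, Tex10, Nle1, Nvl and Eif6. Their counts could hold reads of the partner gene if strand was not used in counting.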

How the data were processed

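RNA was sequenced from 12 libraries of CH12F3-2A cells, 3 in each of 4 groups. The submitters' processing notes name HISAT2 2.2.1, StringTie 2.2.1 and the build GRCm39, with no role for each. A directional library kit was used, per the labels' protocols, but whether counting used strand is not stated. The authors deposited estimated counts (56941 Ensembl genes in 1 table), whole numbers that were not normalized and whose low values were in excess at 4. Symbols, exon lengths and overlaps came from a GRCm38 annotation, which matched 51948 identifiers, so no coordinates are given beyond the promoter windows.

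Here the quasi-likelihood test of edgeR 4.0.16 in R 4.3.3 was run on all 12 libraries with 1 mean per group. TMM factors lay between 0.985 and 1.013. filterByExpr kept 16794 genes, and p was adjusted over these by the Benjamini-Hochberg method. The common dispersion was 0.015. CPM use effective library sizes. The fit was tested on simulated data. Replicates differed by more than sampling noise when counted in units of 4. Alternatives were RLE factors, library totals, no filter, at least 5 CPM in 3 libraries, the replicate block, only the groups compared, counts divided by 4, DESeq2 1.42.0 and leaving out each library. A robust fit was added after seeing the data. Every library was printed for the genes with the smallest p in each role group, in the CIT response with sgCtr and in both guide comparisons, and for the uncalled genes Ddx55 and Nvl. Other pathway genes were named by size among those called, up to 3 each way. The members and lists were chosen with earlier results of these data known.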

Additional observations from a re-analysis of the deposited data

Results flagged for a closer look

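Among the 47 assembly factors, the 32 other pathway genes, Nop16, Myc and Ubtf, the CIT response of 5 genes differed between the guides. The test was the interaction test of edgeR (adjusted p under 0.05 over all tested genes), and cell type markers were not counted. Of the 47 it called 1 and of the 32 it called 3, where 0.881% of all tested genes were called for a higher response and 2.13% in all. In each the fall after CIT was smaller with the Nop16 guide. The difference of log2 responses was 0.22 ± 0.04 (SE) for Rrp1b, the 1 assembly factor among the 47, and this call held under all alternatives that were run. It was 0.24 ± 0.06 for Rrp15, 0.16 ± 0.03 for Pa2g4 and 0.18 ± 0.03 for Mybbp1a among the 32 other genes of the pathway. The call of Rrp15 (adjusted p = 0.0469) ended in 16 of 20 alternatives and that of Pa2g4 (adjusted p = 0.019) in 9. It was 0.29 ± 0.04 for Myc (adjusted p = 0.00183).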

How the results depend on the processing

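The number of called assembly factors moved little for the CIT responses (43 to 44 with sgCtr and 40 to 41 with sgNop16 over all alternatives), where 43 of 44 and 39 of 40 calls remained in every alternative. For the guide with CIT, 3 of 12 calls remained in every alternative, the count was 19 with DESeq2 and lay between 5 and 10 when 1 library was left out. For the guide without CIT, DESeq2 called 2 in place of 0. For the interaction the count was 3 with the stricter filter, 3 with counts divided by 4, 6 with the robust fit, 9 with DESeq2 and 1 to 2 with 1 library left out. DESeq2 called 9.24% of all tested genes for the guide with CIT and 4.57% for the interaction. Such shares are not given for the other alternatives, here or above, so their counts are not set against all tested genes. The cause of these moves was not tested. Signs turned for genes that were not called: leaving out 1 library moved the sgCtr response of Ddx55 between -0.1484 and 0.0369 (log2, the latter without stimulated sgCtr library 1), and Nsa2 was 0.0034 with library totals. Ddx24 in the sgNop16 response was 0.0017 with library totals, 0.0021 with the stricter filter and between -0.0379 and 8e-04 with 1 library left out (the latter without unstimulated sgNop16 library 3).

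No pairing of the libraries by replicate number was seen: 0 of 18 pairs with a shared number had a correlation of deviations over 0.1 (range -0.0448 to 0.0234), and 0 of 12 libraries correlated best with their own number. This does not tell whether libraries with a shared number were prepared together. With the replicate number as a block, 44 and 40 assembly factors were called for the CIT responses with sgCtr and sgNop16. The block left 0 and 11 calls for the guide without and with CIT, and 1 for the interaction. The share of all tested genes called with the block is not given here.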
